A study of Mus musculus with 8 samples.

Results

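Lyz1 and Lyz2 are the neighbouring mouse genes for C-type lysozyme, and both were chosen by name, 2 of the 55414 genes in the count table. Their RNA was measured in Paneth cells (PCs), secretory epithelial cells of the small intestinal crypts, isolated by fluorescence-activated cell sorting from individual mice. The Milli-Q water group, 4 mice, drank purified laboratory water, and the zinc group, 4 mice, drank water with 25 mM ZnSO4, in both cases for 7 days. Per the labels, all 8 mice then received an injection of the inflammatory cytokine TNF (tumor necrosis factor) 3 h before cell collection, so the design has no group without TNF. The methods of the study name C57BL/6J mice, and age and sex are not given in the labels.

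Lysozyme cuts the peptidoglycan of bacterial cell walls. In the mouse the gene was duplicated, and the copies are known for different cells: Lyz1 for PCs, which pack lysozyme into dense granules and release them into the crypt lumen, and Lyz2 for macrophages, monocytes and neutrophils. Because Lyz2 is a standard myeloid gene, its level in sorted PCs also bears on which cells the sort held.

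The library labelled zinc 3 went against its TNF label. In it Icam1, an adhesion molecule induced by TNF, had 0 counts (1057 to 2173 in the other 7 libraries), Tnf itself had 1 (206 to 582) and the NF-kB inhibitor gene Nfkbia had 407 (4039 to 8276). These genes were picked with their values known. A list of 25 TNF and NF-kB target genes summed to 190 counts per 1000000 counts of the library (unscaled CPM) there and to 1611 to 2460 in the others. Each test of Lyz1 and Lyz2 between the groups is therefore also given without zinc 3. For the zinc label, Mt1, a metallothionein gene induced by zinc, had 2712 and 1485 counts in zinc 1 and 2. In zinc 3 and 4 it had 421 and 558, against 450 to 743 with Milli-Q water. A list of 8 zinc-induced genes summed to 594, 331, 197 and 185 unscaled CPM in the zinc libraries 1 to 4. With Milli-Q water it summed to 139 to 190. Slc30a2, a zinc exporter gene, had the most counts of the list. With library sizes scaled as for the tests below, it was at 123, 90.3, 104 and 94.6 CPM in zinc 1 to 4. With Milli-Q water it was at 65.0 to 85.4 CPM, and 2.76% of all genes separated the groups in this direction. Of 6 list genes tested, 5 had a log2 fold change above 0 and 1 below 0 (Slc30a4, -0.20), and 0 were called by edgeR. Mt1 was picked with its values known, and zinc uptake was not tested.

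The ability to count the copies separately rests on the bases at which they differ, which is why their coding sequences are shown. Both genes lie on the minus strand of chromosome 10 (GRCm39, GENCODE M39). Lyz1 (ENSMUSG00000069515) spans 117123698 to 117128775 and Lyz2 (ENSMUSG00000069516) spans 117111557 to 117118346, with 5351 bases between them. Each canonical transcript has 4 exons. The coding sequences, 447 bases each with the stop codon, differed at 22 positions without a gap (95.1% identity), and 17 of these differences lie in the first 250 bases. These bases come from exon 1 (117128608 to 117128775 in Lyz1, 117118012 to 117118226 in Lyz2) and exon 2 (117126934 to 117127098 and 117116546 to 117116710). They are printed 5′ to 3′ from the start codon, and capitals mark the bases at which the genes differ.
Lyz1: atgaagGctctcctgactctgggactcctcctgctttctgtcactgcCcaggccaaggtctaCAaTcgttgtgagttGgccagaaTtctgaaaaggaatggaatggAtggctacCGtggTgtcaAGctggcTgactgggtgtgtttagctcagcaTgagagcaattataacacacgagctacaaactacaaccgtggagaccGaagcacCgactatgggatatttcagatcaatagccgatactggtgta
Lyz2: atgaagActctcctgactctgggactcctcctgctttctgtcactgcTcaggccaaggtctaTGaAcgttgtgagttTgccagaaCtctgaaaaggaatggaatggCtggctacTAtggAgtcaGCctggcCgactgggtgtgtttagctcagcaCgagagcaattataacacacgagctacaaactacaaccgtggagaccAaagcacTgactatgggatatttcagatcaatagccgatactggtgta

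The longest run that is the same in both genes covers coding bases 276 to 393, which run from exon 2 through exon 3 into exon 4. It is shown because a read inside it cannot be given to either gene.
Shared stretch: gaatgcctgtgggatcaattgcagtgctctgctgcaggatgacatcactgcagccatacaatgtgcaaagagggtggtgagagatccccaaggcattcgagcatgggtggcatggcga

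Over the whole canonical Lyz1 transcript of 1269 bases, 16.0% of words of 50 bases, 6.19% of words of 75 and 2.05% of words of 100 occur unchanged in Lyz2. A further part differs by little: 44.1% of the Lyz1 words of 50 bases lie within 1 mismatch of Lyz2. The Lyz2 transcript is longer, 2995 bases, because its exon 4 has 2536 bases against 857 in Lyz1. Hence 60.5% of the Lyz2 words of 50 bases have 10 or more mismatches to Lyz1, and only 6.62% are shared. The sequences of 250 bases before the RefSeq start of each gene (RefSeq, GRCm38.p6, placed on GRCm39 by exact match) were 78.7% identical over 253 aligned columns. The last 50 bases were the same, but the last 49 of the Lyz2 window lie inside exon 1 of its canonical GENCODE transcript. The read length of these libraries and the rule for reads that match both genes are not given for this table in the sources used here, so which of the 3 word lengths is nearest is unknown. How many Lyz1 reads were counted as Lyz2 was not tested, and at the gap in level described next, small Lyz2 counts are uncertain for this reason.

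Lyz1 was among the main transcripts of these cells and Lyz2 was a minor one. Lyz1 held between 1653024 and 2359395 counts in every library, against 187 to 346 for Lyz2. By share of counts Lyz1 was the second gene in 8 of 8 libraries, after the alpha-defensin Defa24, whereas Lyz2 ranked 3991 of 18747 genes with counts.

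In the Milli-Q water libraries 1 to 4 Lyz1 held 14.6%, 15.6%, 16.2% and 16.4% of all counts. In the zinc libraries 1 to 4 it held 15.6%, 15.2%, 15.4% and 15.3%. The zinc libraries lay close together inside the wider range of the Milli-Q water libraries, so the groups overlapped. The mean was 15.7% ± 0.819 with Milli-Q water and 15.4% ± 0.151 with zinc (SD, n = 4 each). Zinc minus water was -0.34 percentage points (two-sided exact permutation p = 0.4, adjusted p = 0.857 over the 5 such tests). The 95% Wilson interval of the lowest library, Milli-Q water 1, was 14.56% to 14.60%, so the spread between mice was wider than the counting error. Without Milli-Q water replicate 1 the difference was -0.72 points and the exact p 0.0286, the smallest that 3 against 4 can give. Without Milli-Q water replicates 3 and 4 it was 0.25 points, with zinc higher. Without zinc 3 it was -0.35 points (exact permutation p = 0.514).

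Lyz2 gave 14.4, 22.9, 19.8 and 18.8 unscaled CPM in the Milli-Q water libraries 1 to 4. The zinc libraries 1 to 4 gave 27.5, 22.0, 14.2 and 17.2 unscaled CPM. Both the highest library, zinc 1, and the lowest, zinc 3, were in the zinc group, which enclosed the Milli-Q water group. The means were 19.0 ± 3.52 and 20.2 ± 5.81 unscaled CPM (SD, n = 4 each; exact permutation test, two-sided, p = 0.743). Without zinc replicate 1 the difference turned from 1.29 to -1.12 unscaled CPM, and without Milli-Q water replicate 1 to -0.23. Without zinc 3 it was 3.31 (exact permutation p = 0.371).

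**Figure D1:**
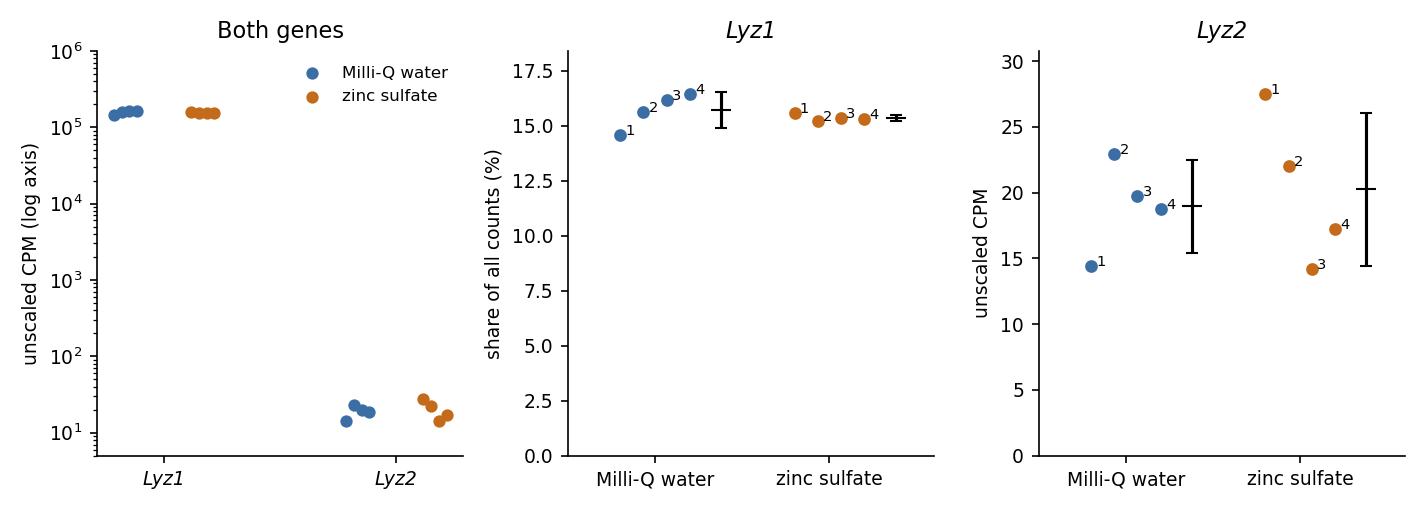
Levels of Lyz1 and Lyz2 in each library, in unscaled CPM on a log axis (left), as the Lyz1 share of all counts in percent (middle) and as Lyz2 in unscaled CPM (right), with library numbers and black bars for the mean ± SD of 4 mice. Lyz1 lay between 14.6% and 16.4% and Lyz2 between 14.2 and 27.5 unscaled CPM, and the Milli-Q water and zinc groups overlapped for both genes.

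The gap between the copies was taken within each library, where it is free of scaling between libraries. There were 10139, 6819, 8185 and 8761 Lyz1 counts per Lyz2 count in the Milli-Q water libraries 1 to 4, and 5661, 6898, 10824 and 8870 in the zinc libraries 1 to 4. The zinc group again held both ends of the range. Over the 8 libraries the mean was 8270 ± 1749 (SD, n = 8), which corresponds to a level per base of exon 21600 ± 4569 times higher for Lyz1 than for Lyz2, since the exons of Lyz2 cover 3325 bases and those of Lyz1 cover 1273. With the longest transcript of each gene as length, the per-length ratio was 20248 ± 4283.

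Per 1000000 lysozyme counts (Lyz1 plus Lyz2), Lyz2 gave 92.4 in zinc 3 (95% Wilson interval 80.1 to 106.6) and 176.6 in zinc 1 (157.5 to 198.1). These are the lowest and the highest of the 8 libraries, both from the zinc group. Between the groups the difference was smaller than the spread between mice: log2 of Lyz2 over Lyz1 counts was -13.03 ± 0.24 with Milli-Q water and -12.93 ± 0.41 with zinc (SD, n = 4 each; exact permutation test, two-sided, p = 0.771). Without zinc replicate 1 the difference, 0.10 with all libraries, was -0.05, and without zinc 3 it was 0.26 (exact permutation p = 0.286).

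**Figure D2:**
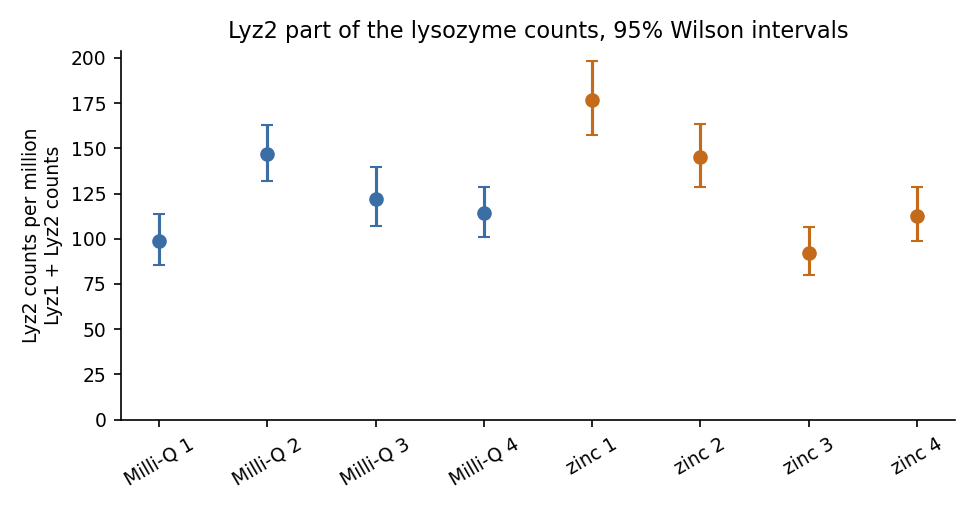
Lyz2 counts per 1000000 Lyz1 and Lyz2 counts in each library of the Milli-Q water (blue) and zinc (orange) groups, with bars for the 95% Wilson interval, which covers counting error only. The zinc libraries held both the highest value, 176.6, and the lowest, 92.4.

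The Lyz1 and Lyz2 shares were not closely related over the 8 mice (Pearson r = 0.301, exact permutation p = 0.471; Spearman rho = 0.333, exact permutation p = 0.428). Without Milli-Q water 1 and 4, the libraries farthest from the median Lyz1 share, r was 0.154 (exact permutation p = 0.758).

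As a share of all counts, Lyz1 varied less than the other abundant transcripts, but not on the TMM-scaled CPM used for the tests below. The coefficient of variation of its share over the 8 libraries was 3.71%, the smallest among the 20 most abundant genes by share, whereas that of its TMM-scaled CPM was 17.8%, in place 4 of the 20. The next smallest of the shares was that of P4hb, a protein disulfide isomerase, at 6.88% (9.99% on the TMM scale, the smallest there). By share, Defa24 varied by 11.5%, the alpha-defensin Defa30 by 16.1% and Itln1 (intelectin-1, a lectin that binds microbial sugars) by 10.3%. The mucin gene Muc2 was at the other end with 52.5%. These values describe the 8 libraries and were not tested.

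**Figure D3:**
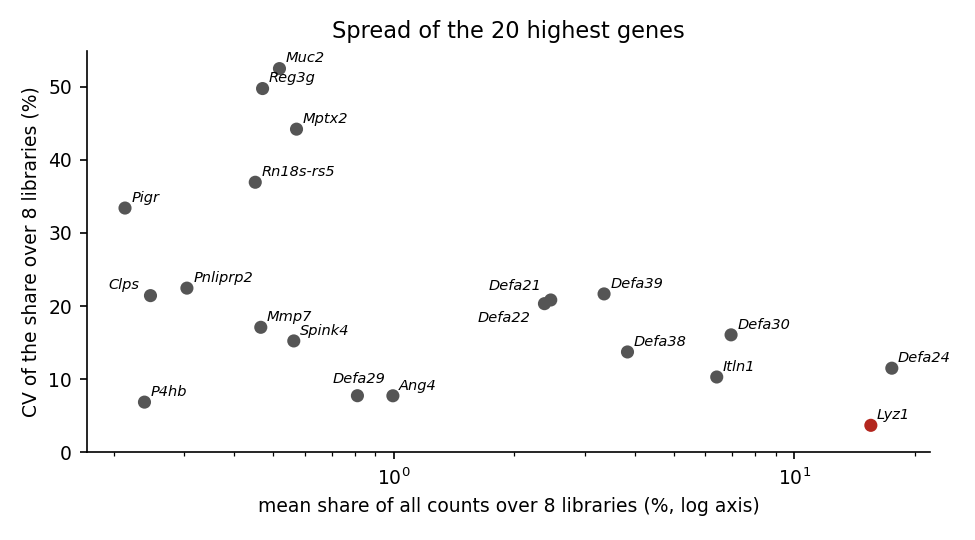
Coefficient of variation of the share of counts over 8 libraries against the mean share in percent (log axis) for the 20 highest genes, each point 1 gene and Lyz1 in red. Lyz1, with 15.5% of counts on average, had the smallest coefficient of the shares, 3.71%, and a coefficient of 17.8% on TMM-scaled CPM, which is not plotted.

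Relative to the other granule contents, Lyz1 also differed by less between the groups than within them. The granule product list used here holds 25 genes (alpha-defensins, lectins, ribonucleases and others, without Lyz1). Among them are Dll4, Fgfrl1, Sntb1 and Nupr1, which do not encode granule contents. Each of these held between 924 and 72262 of the 40271102 counts of the list. Per count of this list there were 0.393 ± 0.0208 Lyz1 counts (SD, n = 8), from 0.362 in Milli-Q water 3 to 0.430 in Milli-Q water 2. Both ends were in the Milli-Q water group and enclosed the zinc libraries. The log2 ratio differed by 0.01 between groups (exact permutation test, two-sided, p = 0.857), and by 0.03 without zinc 3 (exact permutation p = 0.686). Per count of all protein-coding Defa genes there were 0.411 ± 0.0302 Lyz1 counts, with a log2 difference of 0.03 (exact permutation p = 0.771), and 0.06 without zinc 3 (exact permutation p = 0.543). Lyz1 reached 0.759 to 0.999 of the Defa24 counts, so Defa24 was the higher in every library. Because Defa copies are nearly identical in sequence, counts of individual Defa genes are uncertain. Defa23, for example, had 13 counts over the 8 libraries. The rule for reads that match several copies is not given for this table. The summed Defa counts, and with them the share and rank of Lyz1, may depend on that rule, which was not tested.

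The ratio of Lyz1 to Itln1, chosen after its values were seen and so not tested, was 2.44, 2.59, 2.75 and 2.81 in the Milli-Q water libraries 1 to 4. In the zinc libraries 1 to 4 it was 2.20, 2.42, 2.00 and 2.37. All zinc libraries lay below all Milli-Q water libraries, by a narrow margin between zinc 2 and Milli-Q water 1. Such a separation of the ratio of Lyz1 to another gene occurred, among 10617 genes, for 2.51% with the ratio lower in zinc and for 0.527% with it higher.

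Across all genes, counts were compared between the groups by edgeR's quasi-likelihood test, with CPM here on TMM-scaled library sizes. In CPM, Lyz1 was at 135045, 140362, 213314 and 184026 in the Milli-Q water libraries 1 to 4 and at 154721, 132929, 141880 and 155048 in the zinc libraries 1 to 4. Milli-Q water 3 and 4 stood above all others, which they did not to this extent by share, and these are the libraries with the smallest scaling factors (0.758 and 0.893, against 0.986 to 1.14). The log2 fold change, zinc over water, was -0.20 (SE 0.225, 95% interval -0.70 to 0.30, adjusted p = 0.713). The interval leaves room for changes in either direction.

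Lyz2 was at 13.3, 20.6, 26.1 and 21.0 CPM in the Milli-Q water libraries 1 to 4 and at 27.3, 19.3, 13.1 and 17.5 CPM in the zinc libraries 1 to 4. Each group held a library near 13 CPM and a library near 27 or 26 CPM, and the groups overlapped almost fully. The log2 fold change was -0.07 (SE 0.249, 95% interval -0.62 to 0.48, adjusted p = 0.923). Neither lysozyme gene passed the threshold of 0.05, and neither separated the groups. The background was 0 of 10707 genes called by edgeR (0%), with 1092 (10.2%) at an unadjusted p under 0.05, and groups that did not overlap for 2.76% of genes (higher with zinc) and 3.12% (lower).

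Other tools gave 0 calls (limma-voom with sample weights, 12.4% of genes with an unadjusted p under 0.05) and 4 of 18720 (DESeq2, 0.0214%; 6.87% with an unadjusted p under 0.05). The DESeq2 calls, named after their values were seen, were Lrp1, Cd74, Slc14a1 and Ms4a12, and did not include Lyz1 or Lyz2.

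In Milli-Q water 3 and 4 the deviation of genes from their mean fell with transcript length (Spearman rho -0.28 and -0.29 across genes, against 0.01 to 0.22 in the other libraries). The longest Lyz1 transcript has 1271 bases. Without Milli-Q water 3 and 4 the Lyz1 log2 fold change was 0.08, and with the trend on length and GC content removed it was -0.0029. The part of transcript length in the Lyz1 fold change was not tested. Zinc 3 stood apart from the other libraries in its whole profile (Pearson r of 0.847 to 0.903 with the others). Without zinc replicate 3 the log2 fold changes were -0.18 for Lyz1 and 0.09 for Lyz2.

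**Figure D4:**
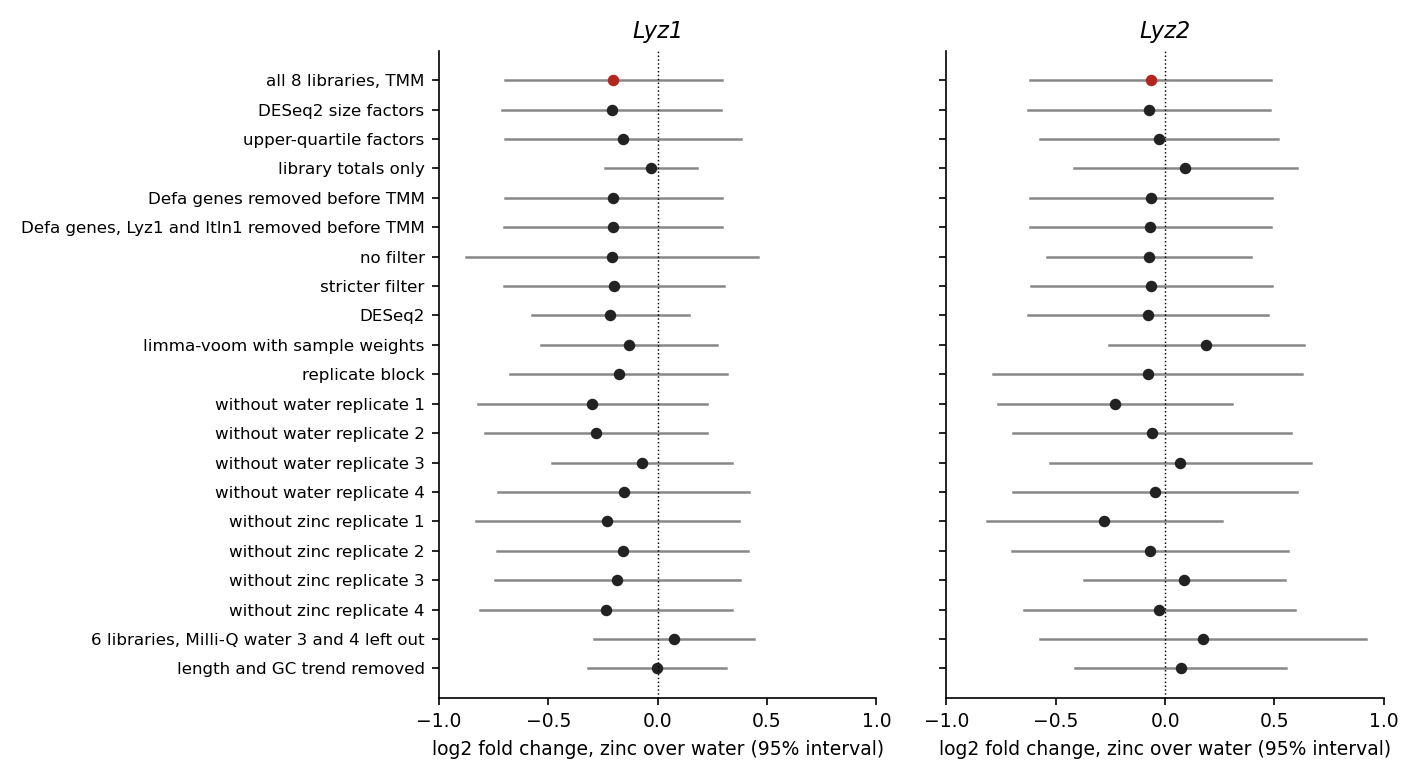
Log2 fold change, zinc over water, of Lyz1 and Lyz2 under each way of processing, with lines for the 95% interval; red marks the value with all 8 libraries and TMM scaling. The values ran from -0.30 to 0.08 for Lyz1 and from -0.28 to 0.19 for Lyz2, and each interval included 0.

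By level per kilobase of exon (RPKM on the TMM-scaled sizes), Lyz1 ranked 3 among all genes, with 123461 ± 21974 (SD, n = 8). Above it were Defa24, with 416586 ± 112818 and above Lyz1 in 8 of 8 libraries, and Defa30, with 133882 ± 42214 and above Lyz1 in 5 of 8, so the order of Defa30 and Lyz1 was not fixed. Defa38 was next below with 65564 ± 16538, lower than Lyz1 in 8 of 8 libraries, followed by Defa39 and Defa21.

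Lyz2, with 5.95 ± 1.57 RPKM, ranked 2327. The genes nearest in mean level were Fut1, Pip4k2c and Ddx42 above and Mgat1, Mlxip and Golm2 below, all between 5.94 and 5.97 RPKM. Chosen for this nearness, each of the 6 was above Lyz2 in 3 to 5 of the 8 libraries, and their order is not set.

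Of the 11 genes of the lysozyme family in the list, Lyz1 and Lyz2 were the only ones that passed the filter on low counts. Lyz3, the third C-type gene of the cluster, had no count in any library, and its coding sequence was 71.2% identical to Lyz1 over the alignment. No count was seen either for Lyzl1, Lyzl6, Spaca3 and Spaca5, which are known from testis and sperm, or for the goose-type genes Lyg1 and Lyg2. A count of 0 allows up to 3 counts per library. Lyzl4 had 1 count over the 8 libraries and Lalba, the related milk protein alpha-lactalbumin, had 22.

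Within 200 kb of the pair 14 genes are annotated, both included. Apart from Lyz1 and Lyz2, 3 were tested: Frs2 (log2 fold change 0.09), Yeats4 (-0.24) and Cpsf6 (-0.15), with adjusted p-values of 0.803, 0.522 and 0.673 by edgeR. Their mean levels were 20.4, 18.1 and 24.3 CPM, near the 19.8 CPM of Lyz2 and far from Lyz1. The other 9 were 7 without a count, among them Lyz3, Gm10936 and Gm9002, and the long noncoding RNAs Gm48903, with 2 counts, and Gm40770, with 1. No other gene within this distance came near the level of Lyz1. The 5′ ends of the annotated gene spans of Lyz1 and Lyz2 lie 10429 bases apart.

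The myeloid markers were set beside Lyz2 for the whole list of 40 genes, 25 of macrophages and monocytes and 15 of neutrophils. In all, 18 of them had no count in any library. These included the macrophage marker Adgre1, the signalling adaptors Tyrobp and Fcer1g, the chemokine receptors Cx3cr1 and Ccr2, and the neutrophil genes S100a8, Mpo and Elane. Over all 40 genes there were 1665 counts in the 8 libraries, beside 1981 for Lyz2. By library, the Milli-Q water libraries 1 to 4 had 452, 302, 236 and 127 marker counts and the zinc libraries 1 to 4 had 98, 202, 61 and 187, so the markers exceeded Lyz2 in Milli-Q water 1 (195 Lyz2 counts) and 3 (212). Most marker counts came from Cd14, Ctss and Lcn2, the only markers that passed the filter on low counts. These 3 were set aside after their values were seen, and the other 37 genes summed to 107 counts over the 8 libraries, from 3 (zinc 3) to 22 (zinc 2) per library.

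The counts of these 37 genes were 20, 17, 6 and 9 in the Milli-Q water libraries 1 to 4, where Lyz2 had 195, 346, 212 and 263, and 18, 22, 3 and 12 in the zinc libraries 1 to 4, where Lyz2 had 292, 269, 187 and 217. Zinc 3 was lowest in both, but Milli-Q water 1, with nearly the most of these marker counts, had the second lowest Lyz2 count. The part of myeloid cells in the Lyz2 counts was not tested. The summed level of the macrophage and monocyte list was 4.64 to 8.57 unscaled CPM with Milli-Q water and 4.48 to 8.85 with zinc. The neutrophil list was at 4.42 to 26.6 and 0.152 to 10.2 unscaled CPM, with 1025 of its 1041 counts from Lcn2. None of the 3 myeloid markers that were tested was called (log2 fold changes -0.68 for Cd14, 0.78 for Ctss and -1.65 for Lcn2).

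**Figure D5:**
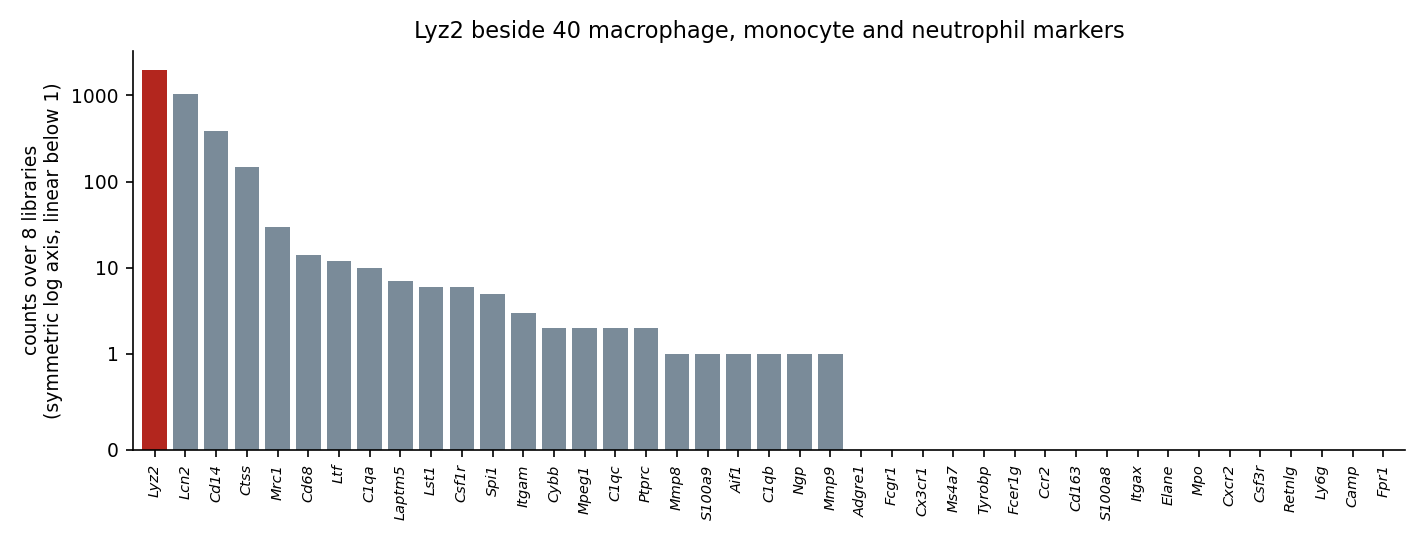
Counts summed over the 8 libraries for Lyz2 (red) and for 40 markers of macrophages, monocytes and neutrophils (grey), on an axis that is logarithmic above 1 and linear from 0 to 1. Lyz2 had 1981 counts and the markers 1665 together, and 18 of the 40 markers had none.

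PC markers were abundant in every library. The 25 genes of the granule product list held 36.4% to 44.7% of counts with Milli-Q water and 36.7% to 40.6% with zinc. Lists of markers of other epithelial cells also had counts, given here in unscaled CPM. The enterocyte list summed to 273 to 428 with Milli-Q water and 350 to 926 with zinc. The goblet list summed to 10374 to 12320 and 12029 to 16087, and the stem cell list to 425 to 733 and 536 to 1309. The enteroendocrine and tuft list was at 29.3 to 44.0 and 23.6 to 39.6. These sums do not measure other cells alone. Agr2, Atoh1 and Spdef of the goblet list are also in the PC gene lists described below. Spink4 gave 570492 of the 1321177 goblet counts, and Vil1 gave 27006 of the 46935 enterocyte counts. The highest enterocyte and stem cell sums, 926 and 1309, were those of zinc 3. Log2 fold changes were above 0 for 9 of 9 enterocyte markers tested (median 0.86) and 11 of 11 stem cell markers (median 0.96), for 7 of 13 goblet markers (median 0.26) and for 3 of 5 enteroendocrine and tuft markers (median 0.21), beside 50.8% of all genes, and 0 of these were called by edgeR (1, 5, 6 and 1 with an unadjusted p under 0.05, beside 10.2% of all genes). Lymphocyte markers stayed at or under 1.48 unscaled CPM and stromal and endothelial markers at or under 0.662. In bulk samples, fewer PCs and less Lyz1 RNA per PC cannot be told apart, and the part of other cells in the Lyz1 share was not tested.

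Lysozyme is guided into granules by a known set of genes, among them Nod2, Ripk2, Rab2a and Lrrk2, with the ER stress gene Xbp1 and autophagy genes such as Atg16l1. Of the 22 genes in this sorting and granule list, 19 were tested, with log2 fold changes above 0 for 9 and below 0 for 10 (50.8% and 49.2% over all genes tested), and 0 were called by edgeR (4 had an unadjusted p under 0.05, where 10.2% of all genes did). Their median log2 fold change was -0.03, beside 0.01 over all genes tested.

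Rab2a, a small GTPase of the secretory route, averaged 105 ± 4.82 CPM in the Milli-Q water group and 104 ± 0.417 CPM in the zinc group (SD, n = 4 per group). Nod2, a sensor of peptidoglycan fragments, was between 8.36 and 13.5 CPM in 7 libraries and at 0.421 CPM in zinc 3. Its signalling partner Ripk2 was between 15.7 and 30.3 CPM in 7 libraries and at 1.26 CPM in zinc 3. Both low values belong to the same library, in which the Lyz1 share was 15.4%, inside the range of the others. A share of RNA counts does not measure lysozyme protein or its sorting. Lrrk2, a kinase of lysozyme sorting, had no count in any library, which allows up to 3 counts in each.

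The most abundant genes of the list were Agr2, a disulfide isomerase (log2 fold change -0.20, adjusted p = 0.776 by edgeR), Xbp1 and Rab3d, a GTPase of secretory granules (0.16, adjusted p = 0.643 by edgeR). Xbp1 was at 656, 616, 598 and 588 CPM in the Milli-Q water libraries 1 to 4 and at 510, 515, 286 and 569 CPM in the zinc libraries 1 to 4. All zinc libraries lay below all Milli-Q water libraries, as for 3.12% of all genes, and zinc 3 was the lowest. The log2 fold change was -0.39 (SE 0.210, adjusted p = 0.508 by edgeR).

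Among the 25 genes of the granule product list 24 were tested, with 9 above 0 and 15 below 0, a median log2 fold change of -0.13 and 0 called by edgeR (4 with an unadjusted p under 0.05, beside 10.2% of all genes). Of the listed genes that do not encode granule contents, Dll4 (0.94), Fgfrl1 (0.63) and Sntb1 (0.08) were above 0 and Nupr1 (-0.27) was below. The highest genes of the list by level were Defa24 (-0.29), Defa30 (-0.30) and Itln1 (0.05), with adjusted p-values of 0.645, 0.658 and 0.931 by edgeR. Of 17 regulators of the PC lineage 16 were tested, with 10 above 0 and 6 below 0, a median of 0.14 and 0 called by edgeR (4 with an unadjusted p under 0.05, beside 10.2% of all genes). Stat3 (-0.24) and Sox9 (-0.21), the transcription factor needed for PCs to form, were with Xbp1 the highest of these.

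The genes whose log2 CPM followed that of Lyz1 most closely over the 8 libraries, among 3912 genes of at least 20 CPM, were Defa40 (Pearson r = 0.990), BC031181 (0.981), Defa24 (0.980), Defa26 (0.979) and Eif3m (0.979). For Defa30 r was 0.937, for Itln1 0.737 and for Lyz2 0.599. The genes closest to Lyz2 were Lrrc41 (0.853), Ptma (0.844), Hnrnpk (0.844), Elavl1 (0.834) and G6pdx (0.830), all lower than the values around Lyz1. The points share libraries and scaling factors, so these values are a description, with no test. No Defa gene was among the 5 genes closest to Lyz2.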

How the data were processed

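RNA of sorted PCs from 8 mice was sequenced with a stranded mRNA kit per the labels. What the authors deposited is 1 table of raw counts by Ensembl identifier. The submitters' processing notes name FastQC 0.12.0, STAR 2.7.10a, DESeq2 and mm39; the counter and the rule for reads with several matches are not given in the sources used here. Library totals ran from 10623658 to 15101627 counts, and 665 identifiers (0.00443% of counts) had no GENCODE M39 entry.

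Lyz1 and Lyz2, the gene lists and the naming rule were chosen with earlier results of these data known. Named were both genes, their family, genes within 200 kb, 3 neighbours in level on each side, the 5 most alike genes and the 3 highest tested genes of a list described; others were picked with their values known. The zinc and Milli-Q water groups were compared with edgeR 4.0.16 (R 4.3.3; TMM, filterByExpr, quasi-likelihood F-test, Benjamini-Hochberg over 10707 genes) with limma 3.58.1 and DESeq2 1.42.0 as alternatives. Shares and ratios per library were tested by exact two-sided permutation over 70 assignments (scipy 1.17.1), with 0.0286 as the smallest p. Each library is 1 mouse. Wilson intervals and the floor of 3 counts hold for counting error alone, as there were no molecular identifiers. The steps were tested on simulated data. Alternatives were other scalings, filters, denominators and lengths, a length and GC correction, a replicate block and libraries left out.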

Additional observations from a re-analysis of the deposited data

Results flagged for a closer look

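The summed level of 25 TNF and NF-kB response genes was 190 unscaled CPM in zinc 3, far below the other zinc libraries (1921 to 2226), a gap larger than a Dixon test allows for 4 samples. Of 44 sets of 4 libraries searched, 1 was marked, where chance gives about 1 in 20, or 2.2. In the same library Lyz1 held 15.4% of counts, inside the range of the other libraries, and Lyz2 had the lowest level of the 8, 14.2 unscaled CPM. Neither lysozyme measure was marked in either group.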

How the results depend on the processing

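Neither lysozyme gene was called by edgeR, DESeq2 or limma-voom under any alternative run. Genes called were 0 except with DESeq2, which called 4. The Lyz1 log2 fold change kept its direction under 19 of 20 alternatives (-0.30 to -0.072 with 1 library left out), but fell close to 0 with library totals only (-0.032) and with the length and GC trend removed (-0.0029), and was 0.076 without Milli-Q water 3 and 4. That of Lyz2 turned to 0.093 with library totals only, 0.19 with limma-voom, 0.071 with the length and GC trend removed, 0.17 without Milli-Q water 3 and 4, 0.070 without Milli-Q water 3 and 0.088 without zinc 3 (range with 1 left out -0.28 to 0.088). With 1 library left out, the difference in Lyz1 share was -0.72 to -0.10 percentage points, in Lyz2 -1.12 to 3.31 unscaled CPM, in log2 Lyz2 over Lyz1 -0.055 to 0.26, in log2 Lyz1 over granule products -0.025 to 0.057 and over Defa genes -0.029 to 0.088; the Lyz1 share alone reached an exact p of 0.0286, without Milli-Q water 1. Without Milli-Q water 3 and 4 the Lyz1 share differed by 0.25 points, and the log2 ratios to granule products and Defa genes by -0.051 and -0.072. As a share of counts outside Defa genes, Lyz1 differed by -1.44 points (exact permutation p = 0.429). Against counts outside the 20 highest genes it differed by -3.74 points (exact permutation p = 0.486). These denominators are smaller, so their points are not on the same scale. The log2 ratios also turned below 0 without Milli-Q water 3 (-0.025 and -0.029) or zinc 2 (-0.011 and -0.0011). Without length scaling, Lyz1 over Lyz2 was 8270. The cause was not tested.

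Replicate numbers did not pair the samples (correlations of deviations -0.03 to 0.03, no library closest to its own number). With the replicate block the log2 fold changes were -0.18 for Lyz1 and -0.080 for Lyz2, with no call.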
